A study of Mus musculus with 30 samples.

Results

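The regions described here are the Ikaros-bound regions that cultured pre-B cells of both genotypes shared and that neither thymocyte list held. A member is a region of the WT pre-B Ikaros list that overlapped, by 1 bp or more, a region of the homo pre-B Ikaros list and no region of the WT or homo thymocyte Ikaros list. Members were thus chosen by the authors' peak calls in these 4 libraries, so their presence and fold there are a description. The rule found 2225 members among the 3683 regions of the WT pre-B list, or 60.4% of that list, and among 24085 regions in the 4 Ikaros lists. They overlapped 2219 of the 8609 homo pre-B regions, 25.8% of that longer list.

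The series was made to ask what the G158R substitution in Aiolos, the product of Ikzf3, does to lymphocytes of C57BL/6 mice. Genotypes are written WT (Ikzf3+/+), het (Ikzf3+/m) and homo (Ikzf3m/m). RNA was sequenced from bone marrow cells sorted as pre-pro B cells (B220+ AA4.1+ IgM- CD43+ CD24-) or as pre-B cells (B220+ AA4.1+ IgM- CD43- CD24+), with 3 libraries in each of the 6 groups of stage and genotype. Ikaros and Aiolos were mapped by chromatin immunoprecipitation in WT and homo cells only, with 1 library for each antibody, genotype and cell type. The pre-B cells of that assay had been grown from B220+ IgM- marrow on Tst-4 stroma with IL-7, SCF and Flt3L, whereas the RNA came from freshly sorted cells. The thymocytes were of the same 2 genotypes, and the labels give no age or further treatment for any group.

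Ikaros and Aiolos are zinc finger proteins of one family that bind DNA alone or as pairs, most often at sites around the core TGGGAA, and can both repress and activate genes. Pre-B cells are the precursors that have joined a heavy chain gene and divide before they rearrange a light chain gene. In them Ikaros and Aiolos are known to restrain pre-B cell receptor and IL-7 driven growth and to aid the step towards differentiation, while in thymocytes Ikaros works on another set of genes. EBF1, E2A, Pax5 and Foxo1 are the factors that set up and hold the B lineage programme.

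Few members lay on promoters. A promoter window is taken here as the 250 bases before to 50 bases after a RefSeq transcription start. The start can be an internal one of the gene, as in Cd22, Ctnnd1, Ifit2 and Plaur. 36 members touched 37 such windows of 36 genes. The sequences below are 6 of these windows, from RefSeq on GRCm38.p6 (mm10), 5′ to 3′ on the strand of the gene. They belong to the 4 genes whose RNA was called different between homo and WT pre-B cells (Cd22, Ctnnd1, Cd44, Ifit2) and to the genes with the largest RNA fall (Runx2) and rise (Myo1e) from WT pre-pro B to WT pre-B cells, a choice made after the values were seen. Capitals mark matches, on either strand, to TGGGAA (the Ikaros core) or TGTGGT (the Runx core), and the matches in the windows printed do not overlap each other.
Cd22, chr7:30878979-30879278, minus strand: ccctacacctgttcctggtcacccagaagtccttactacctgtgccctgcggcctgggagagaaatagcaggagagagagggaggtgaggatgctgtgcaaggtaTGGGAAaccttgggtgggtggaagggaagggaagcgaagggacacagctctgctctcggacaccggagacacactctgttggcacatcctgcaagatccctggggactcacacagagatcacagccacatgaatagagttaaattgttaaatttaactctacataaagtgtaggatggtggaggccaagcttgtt
Ctnnd1, chr2:84650691-84650990, minus strand: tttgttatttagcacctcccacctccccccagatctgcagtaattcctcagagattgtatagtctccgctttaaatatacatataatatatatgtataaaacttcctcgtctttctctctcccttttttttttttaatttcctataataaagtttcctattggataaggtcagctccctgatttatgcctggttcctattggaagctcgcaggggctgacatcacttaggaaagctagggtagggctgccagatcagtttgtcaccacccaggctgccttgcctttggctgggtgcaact
Cd44, chr2:102901616-102901915, minus strand: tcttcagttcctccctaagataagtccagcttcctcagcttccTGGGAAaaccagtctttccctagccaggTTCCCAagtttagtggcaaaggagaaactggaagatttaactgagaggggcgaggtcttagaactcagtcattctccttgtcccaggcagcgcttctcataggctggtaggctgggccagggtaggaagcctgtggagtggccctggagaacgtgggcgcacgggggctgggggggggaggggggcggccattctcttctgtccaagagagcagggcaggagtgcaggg
Ifit2, chr19:34550838-34551137, plus strand: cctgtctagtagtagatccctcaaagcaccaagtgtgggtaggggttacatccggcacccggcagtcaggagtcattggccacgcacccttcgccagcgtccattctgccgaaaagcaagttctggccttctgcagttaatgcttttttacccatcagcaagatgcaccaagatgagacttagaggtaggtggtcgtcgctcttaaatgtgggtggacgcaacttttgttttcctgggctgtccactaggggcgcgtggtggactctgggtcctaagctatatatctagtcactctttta
Runx2, chr17:44814578-44814877, minus strand: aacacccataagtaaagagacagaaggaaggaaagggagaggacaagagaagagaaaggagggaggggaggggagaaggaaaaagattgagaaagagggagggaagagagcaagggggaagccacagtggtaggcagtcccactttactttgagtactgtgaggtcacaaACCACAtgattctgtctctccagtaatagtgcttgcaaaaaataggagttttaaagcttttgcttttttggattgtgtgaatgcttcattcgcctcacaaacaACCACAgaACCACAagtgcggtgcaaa
Myo1e, chr9:70207100-70207399, plus strand: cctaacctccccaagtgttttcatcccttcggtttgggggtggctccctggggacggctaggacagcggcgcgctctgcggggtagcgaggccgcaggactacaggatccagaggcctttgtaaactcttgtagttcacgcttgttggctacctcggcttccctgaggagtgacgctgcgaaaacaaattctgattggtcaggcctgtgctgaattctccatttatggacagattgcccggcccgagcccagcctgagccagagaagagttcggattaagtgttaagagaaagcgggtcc

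The Cd22 window lay whole inside its member and held 1 TGGGAA match, whose first base was at -145 from the start. The Cd44 window held 2 TGGGAA matches, at -207 and -179. The Runx2 window held 3 TGTGGT matches, at -80, 24 and 32, and no TGGGAA. Neither motif was found in the Ctnnd1, Ifit2 and Myo1e windows. The Myo1e window shared 5 bp with its member, the Ifit2 window 23 bp, the Ctnnd1 window 164 bp, the Cd44 window 179 bp and the Runx2 window 219 bp. Over all windows with a member, TGGGAA was present in 15 of 37 (40.5%), against 25.6% of the 32851 windows of the same length in the table. TGTGGT was present in 6 (16.2%, against 16.8% of all). These are matches of letters, sought in each whole window, of which the member may cover only a part. The Runx2 matches at 24 and 32 lay outside its member, and the match at -80 lay inside it. The Cd22 and Cd44 matches lay inside their members. Sequence outside promoter windows was not read.

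The strength of a region is given as its fold, the authors' own value for how far its reads exceed the local background. Folds of WT and homo came from 1 library each and from separate peak calls, so they are set side by side without a test, and they describe regions that were chosen for being in both lists. In WT the members' folds ran from 2.58 to 21.8 with a median of 4.97 (quartiles 4.24 and 6.39), and in homo from 2.26 to 27.7 with a median of 6.45. The homo fold was above the WT fold at 1856 members (83.4%), and the median ratio of homo to WT fold was 1.26. In the homo list the regions were also wider, with a median of 440 bp against 299 bp. The 979 WT regions that were in all 4 Ikaros lists were stronger and changed less: their median fold was 7.06 in WT and 8.22 in homo, the homo fold was the higher at 75.2% and the median ratio was 1.15. Folds of the 2 genotypes ranked the members alike (Spearman's rho 0.732 across 2225 regions of the same 2 libraries, a description only).

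**Figure D1:**
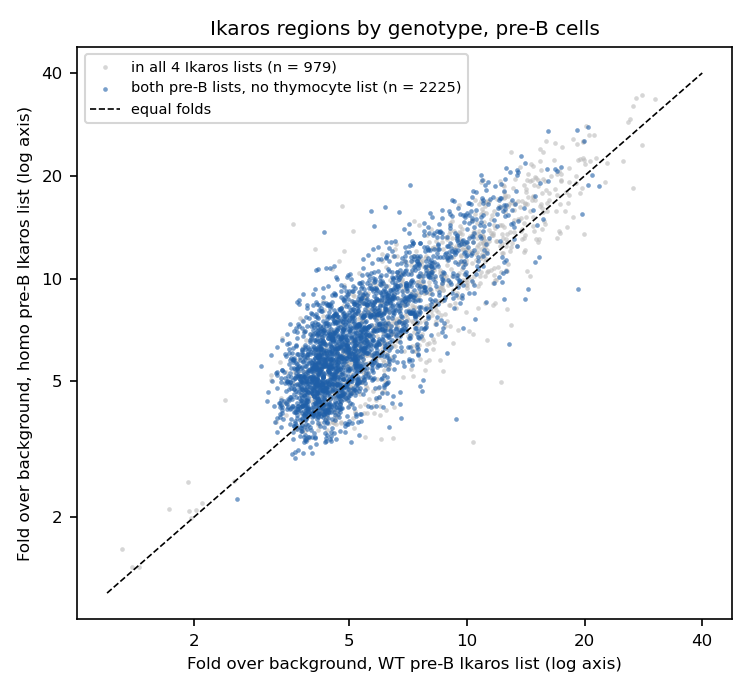
Fold over background of each region in the WT pre-B Ikaros list (x axis, log scale) and of the overlapping region in the homo pre-B list (y axis, log scale), 1 library each. Blue points are the 2225 members, grey points the 979 regions in all 4 Ikaros lists, and the dashed line marks equal folds; 83.4% of the blue points lie above it.

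Large differences in fold between genotypes were rare. At 41 members the homo fold was over 2 times the WT fold, and at 2 members it was under 0.5 times. The highest ratio of homo to WT fold was at the promoter shared by Plagl1, a zinc finger gene, and the noncoding Hymai, with a fold of 4.31 in WT and 13.7 in homo. Next were members in the zinc finger gene Zfp316 (5.67 and 15.8), beside Hspa1b (7.17 and 18.8), on the promoter of Nnat (6.18 and 16.2) and in Zrsr1 (4.11 and 10.6). The homo region beside Hspa1b also overlapped a stronger WT member, with a fold of 20.5. The ratio for the weaker Hspa1b member therefore does not compare like regions. In the other direction, the member in Slamf7, a receptor of lymphocyte and NK cell surfaces, had a fold of 9.38 in WT and 3.89 in homo. The member in Coro2b had folds of 19.2 and 9.32, and the member in Axin2, a negative regulator of Wnt signalling, had 12.8 and 6.44.

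The 10 strongest members by WT fold included 2 at central B cell genes. The strongest of all was the Cd22 promoter region (chr7:30878545-30879313), with a fold of 21.8 in WT and 18.7 in homo. The centre of this region lay 1.41 kb inside the gene from its 5′ end, at an internal RefSeq start. CD22 is a lectin-like receptor that dampens B cell receptor signalling. The member in the body of Pax5 (chr4:44670746-44671466), 39.6 kb from the gene's 5′ end, had a fold of 20.4 in WT and 27.7 in homo, the highest homo fold of any member. The others lay in Dscaml1 (20.9 and 20.0), beside the heat shock gene Hspa1b (20.5 and 18.8), in Nat14 (19.7 and 15.4), in Coro2b, Oxr1 (17.4 and 21.3) and Vps13d (17.0 and 20.7), and 73277 bp and 44240 bp from their nearest genes, 4930529L06Rik (19.9 and 25.4) and Fbxo32 (19.1 and 27.3). Dscaml1, a cell adhesion gene, had 2 counts in WT and 2 in het pre-B libraries and none in the other groups, and 4930529L06Rik had none in any library.

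At the edge of the rule, 25 members had a thymocyte Ikaros region within 1 kb, and the 20 members with the lowest WT −log10 q had folds of 2.97 to 3.41. On the other side, 146 WT pre-B regions overlapped no region of any other Ikaros list, with folds of 2.56 to 7.22 and a median of 3.96. A further 284 WT regions were in both pre-B lists and 1 thymocyte list.

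By position, 948 members (42.6%) lay in a gene body outside a promoter window, 418 (18.8%) within 10 kb of a gene and 823 (37.0%) farther away, with 1.62% on a promoter window. Of the regions in all 4 Ikaros lists 6.13% lay on a promoter window, 51.5% elsewhere in a gene and 24.7% farther than 10 kb. Members on promoters had a median fold of 5.78 in WT and 7.41 in homo, against 4.95 and 6.39 in gene bodies and 5.001 and 6.46 far from genes. Aiolos regions rarely coincided with members. 2 of the 2225 members (0.0899%) overlapped one of the 431 WT pre-B Aiolos regions, against 16 of the 1458 WT pre-B Ikaros regions that were no member (1.10%). No member overlapped any of the 24 homo pre-B Aiolos regions. The short Aiolos lists limit these shares.

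**Figure D2:**
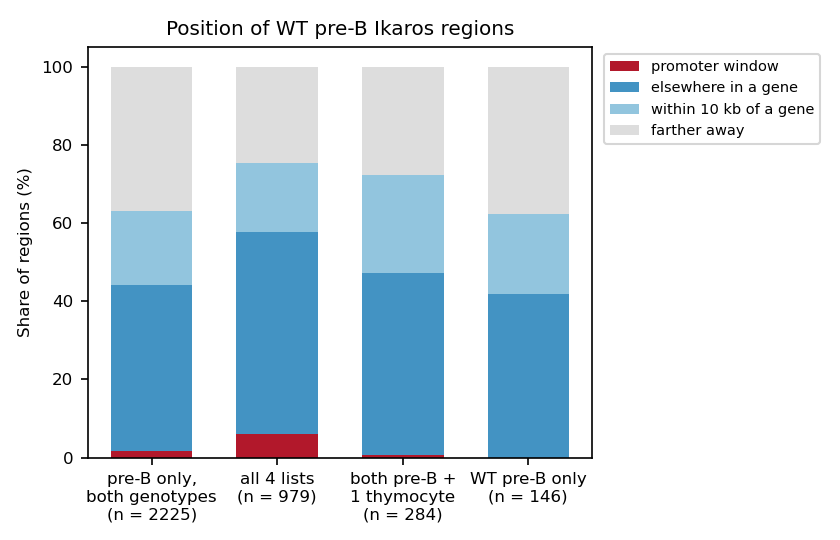
Share of WT pre-B Ikaros regions (y axis, percent) on a promoter window, elsewhere in a gene, within 10 kb of a gene or farther away, for members and for 3 other classes of the same list (x axis, with the number of regions). The promoter part is 1.62% of the members and 6.13% of the regions in all 4 lists.

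Genes were called nearby where the gene body overlapped a member or either end lay within 10 kb of one, which is a measure of position and not of control. 1398 members (62.8%) had such a gene, and 1551 genes had such a member, 1380 of them protein coding. Of these genes 173 had 2 or more members, 32 had 3 or more and 7 had 4 or more. Ebf1 and Runx2 had the most, 5 each. Members also lay by 19 Hox genes, 16 members in 3 Hox clusters. The RNA table tested 900 of the nearby genes across both stages (58.0%, against 50.9% of all 24459 genes in the table), and 146 had no count in any library. The genes tested are therefore not all members' neighbours.

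Of 140 genes fixed in 6 B lineage lists, 21 (15%) were near a member, against 6.38% of the 24312 genes with a position. The lists were written with earlier results of these data known, so these shares are a description. Near a member were 6 of 34 B lineage transcription factors (Pax5, Ebf1, Tcf3, Tcf4, Foxo1, Zeb2), 5 of 31 genes of pre-B and B cell receptor signalling (Blnk, Btk, Lyn, Cd22, Vav1) and 2 of 15 of IL-7 and cytokine signalling (Socs2, Cish). The rest were 5 of 28 B cell surface genes (Cd24a, Cd38, Cd93, Fcer2a, Bst2) and 3 of 18 of cell cycle and survival (Cdk6, Bcl2l1, Bcl2l11). None of the 14 V(D)J recombination genes and none of 23 T lineage genes was near a member. The rule left out every region that overlapped a thymocyte Ikaros region, so the T lineage share depends on the rule. Lists of other cell types had shares as high or higher: 3 of 17 myeloid (17.6%), 3 of 15 plasmacytoid dendritic (20%), 3 of 15 NK (20%), 2 of 11 erythroid (18.2%) and 2 of 10 stromal list genes (20%) were near a member. By the same window, regions in all 4 Ikaros lists were near 31 of the 140 B lineage genes (22.1%), against 3.77% of all genes, a higher share over a lower background than for members. Among those 31 were Rag1, Cd79b, Il7r, Irf4, Lef1 and Ikzf1. Such regions were also near 4 of 23 T lineage genes (Cd3d, Cd3g, Zap70, Cd5). Of the 140 B lineage genes only Tcf4, Zeb2 and Cdk6 had both kinds of region nearby, and of all genes with a position 100 had.

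RNA libraries held 1888871 to 9048055 gene counts. CPM of single genes are TMM-normalised counts scaled to a common library size. Marker sums are CPM scaled by library size alone, without TMM. Summed levels of 10 pre-B markers were 605 to 714 CPM in WT pre-pro B libraries and 3489 to 3721 in WT pre-B libraries. Sums of 5 plasmacytoid dendritic cell markers were 3659 to 4089 CPM and 324 to 343 CPM in the same order, with none of the 5 at 0 in either group. The pre-B markers include Pax5, Ebf1, Blnk and Cd24a, and the plasmacytoid dendritic ones Tcf4 and Runx2, all of them near members. The sums are thus no separate measure for these genes. In bulk RNA, fewer cells of a type and less RNA per cell cannot be told apart. 1 pre-B library, homo replicate 3, held 1888871 gene counts where the other 8 held 4265056 to 6757040, and counts of some abundant genes did not scale with that depth: Cd24a had 1447 counts in it and 1882 to 2060 in the other 8. Others did, such as Tcf3, at 503, 503 and 507 CPM in the 3 homo libraries. All WT mice were XX by their sex-linked RNA, and 2 of the 3 homo libraries of each stage were XY, so sex and genotype were partly confounded. The labels do not say whether libraries came from separate mice, so p-values measure the spread between these libraries.

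Between the stages, RNA of B lineage genes near members was mostly higher in pre-B cells. With edgeR's quasi-likelihood test and Benjamini-Hochberg adjustment, 13 of the 21 genes rose from WT pre-pro B to WT pre-B cells and 3 fell, with a median log2 difference of 1.34, and of the 118 tested B lineage genes with no member nearby 64 rose and 32 fell (median 0.51). Of all 900 nearby genes 289 rose (32.1%) and 339 fell (37.7%), against 31% and 33.3% of all 12440 genes tested. The share that fell was above that of all genes in all 14 alternative settings in each genotype, and the share that rose in 12 of 14 in WT, 6 of 14 in het and 11 of 14 in homo. In het cells 287 rose and 361 fell (against 32.4% and 35.8% of all genes), and in homo cells 295 rose and 361 fell (against 32.7% and 36.4%). The plasmacytoid dendritic list moved with stage too: all 3 of its genes near a member (Bst2, Tcf4, Runx2) fell, as did 11 of the 12 with no member nearby. The part of those cells in these differences was not tested.

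Pax5, the factor that commits cells to the B lineage, had 12.2, 8.49 and 12.5 CPM in WT pre-pro B libraries and 208, 213 and 201 CPM in WT pre-B libraries. The groups did not overlap, and the log2 difference was 4.23 ± 0.17 (SE; edgeR's quasi-likelihood test, adjusted p = 5.22e-13). Ebf1 encodes the pioneer factor that acts with Pax5, and its 5 members lay 0.876 kb to 293 kb downstream of the 5′ end of the gene, with WT folds of 4.88 to 7.75. Its RNA was 50.3, 32.8 and 49.4 CPM in WT pre-pro B and 627, 643 and 629 CPM in WT pre-B libraries, a log2 difference of 3.84 ± 0.30 (edgeR adjusted p = 3.73e-09). Foxo1, needed for Rag gene expression and IL-7 receptor levels, had a member 9.62 kb upstream with folds of 8.51 and 13.8. Foxo1 RNA was 167, 152 and 169 CPM and then 469, 471 and 445 CPM, a rise of 1.51 ± 0.10 on the log2 scale (edgeR adjusted p = 2.03e-10). Tcf3, which encodes the E2A proteins, had a member 6.42 kb upstream with folds of 4.43 and 7.39 and rose by 1.33 ± 0.09 (edgeR adjusted p = 2.48e-10). In all 4 of these genes each WT pre-B library was above each WT pre-pro B library.

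Cd22 rose from 38.9, 33.8 and 42.7 CPM to 259, 254 and 263 CPM, a log2 difference of 2.75 ± 0.19 (edgeR adjusted p = 8.04e-10). The survival gene Bcl2l1, which encodes Bcl-xL, had a member in its body with folds of 4.22 and 6.21 and rose by 3.62 ± 0.29 (edgeR adjusted p = 5.21e-09). Other genes that rose were Fcer2a (the low affinity IgE receptor CD23, log2 3.10), Socs2 (a feedback inhibitor of cytokine receptors, 2.30), Cd24a (2.16), Cd93 (the AA4.1 antigen, 2.15), Cd38 (1.66), Bcl2l11 (the death-promoting Bim, 1.34) and Btk (the kinase mutated in agammaglobulinaemia, 0.74). CD24 and AA4.1 were used in the sort, and CD24 sets the 2 stages apart, so the rise of Cd24a is no finding. Bst2 (-3.48), Tcf4 (the E protein E2-2, -1.97) and Vav1 (a guanine exchange factor, -0.53) fell. Blnk, the adaptor of the pre-B cell receptor, Lyn, Cdk6, Zeb2 and Cish passed in neither direction (log2 0.06 to 0.40).

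**Figure D3:**
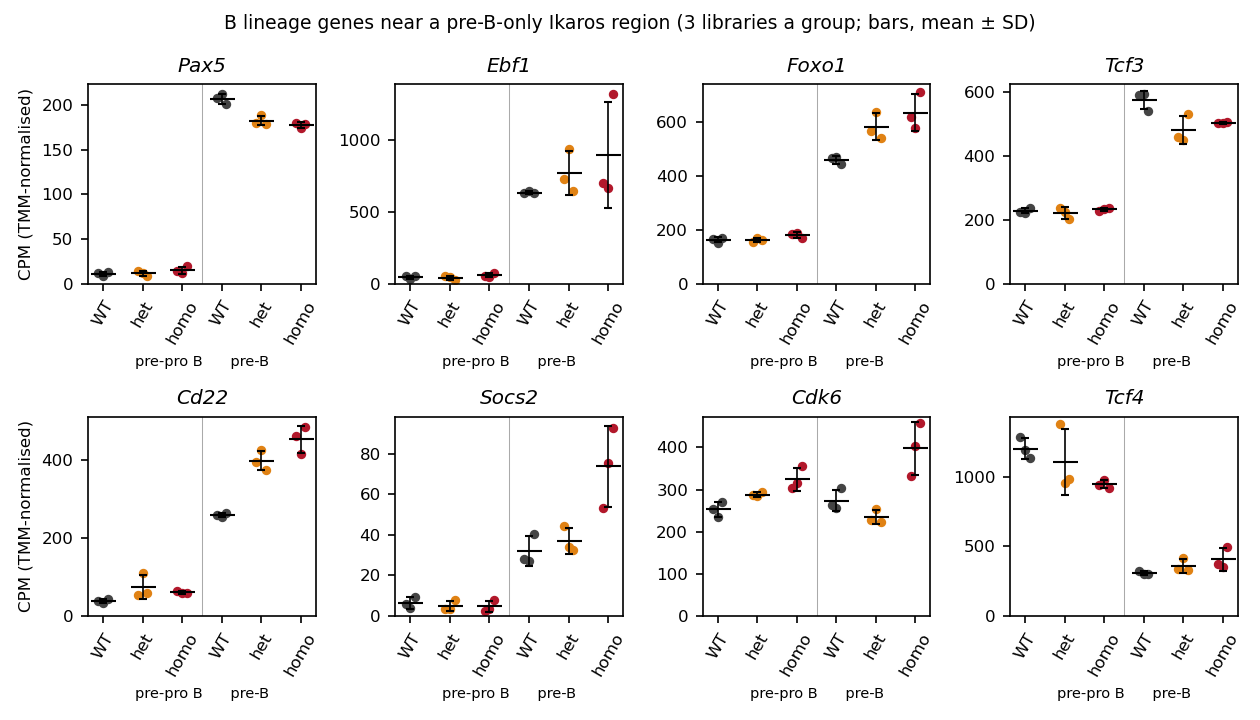
RNA levels (y axis, TMM-normalised CPM, each gene on its own axis from 0) of 8 B lineage genes near a member in the 6 groups of stage and genotype (x axis). Points are libraries, bars the mean ± SD of 3. Pax5 is at 8.49 to 12.5 CPM in WT pre-pro B and 201 to 213 CPM in WT pre-B libraries, and Cd22 is at 254 to 263 CPM in WT and 414 to 483 CPM in homo pre-B libraries.

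Among all nearby genes the largest rises with stage were those of Shank2, Klhl14, 4930426D05Rik, Cpm and Fmn2. Cpm, a membrane carboxypeptidase, went from 2.63, 2.16 and 3.27 CPM to 489, 507 and 508 CPM (log2 7.53 ± 0.19, edgeR adjusted p = 9.64e-16). Fmn2, an actin-nucleating formin, went from 0.939, 0.999 and 0.934 CPM to 106, 116 and 112 CPM (log2 6.83 ± 0.22, edgeR adjusted p = 1.65e-14). Shank2, a scaffold protein best known from synapses, had no count in WT pre-pro B and 329 counts in WT pre-B libraries. With 3 counts taken as the floor for the whole group, that is at least 111-fold higher. Klhl14 and 4930426D05Rik overlap and share 1 member, and no source used here says whether counting used strand, so their rises cannot be told apart.

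The largest falls were those of Adam11, Cebpa, Runx2, Serpinh1 and Palld. Runx2, an osteoblast and plasmacytoid dendritic cell factor with members from its promoter to 315 kb inside the gene (WT folds 4.13 to 9.03), went from 1219, 1161 and 1092 CPM to 1.28, 0.179 and 0.967 CPM (log2 -10.41 ± 0.29, edgeR adjusted p = 3.73e-15). Cebpa, the factor that drives myeloid fate, had 1206 counts in WT pre-pro B and none in WT pre-B libraries, at least 398-fold lower. Palld, an actin-bundling protein, was at least 113-fold lower on the same floor. Serpinh1, a collagen chaperone, had 2486 counts and then 2, a ratio of 1232 (95% counting interval 341 to 10180). Adam11 had 11489 counts and then 1.

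Of the 17 tested genes with a member on a promoter window, 4 rose and 10 fell with stage in WT, against 31% and 33.3% of all genes tested. Plaur, the urokinase receptor, fell by 7.53 on the log2 scale (± 0.31, edgeR adjusted p = 4.67e-13), and Myo1e, a membrane-linked myosin, rose from 2.07, 0.832 and 1.87 CPM to 140, 155 and 155 CPM (6.56 ± 0.30, edgeR adjusted p = 2.52e-12).

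Between genotypes in pre-B cells, nearby genes were called more often than genes at large, in both directions. Of 809 nearby genes tested, 108 (13.3%) were higher and 100 (12.4%) lower in homo than in WT pre-B cells, against 7.42% and 8.45% of all 11411 genes. Het cells showed fewer calls, 51 higher (6.30%) and 48 lower (5.93%), against 2.8% and 3.38% of all genes. The median absolute log2 difference of homo to WT was 0.37 near members and 0.27 over all genes. Genes with 2 or more members were called higher in 19.6% and lower in 13.0% of 92 tested. With a window of 2 kb the shares were 14.5% and 13.4%, and with 50 kb 9.75% and 10.5%. Genes near regions in all 4 Ikaros lists were called in 9.77% and 12%, and the difference between these lists of genes, which share members, was not tested. A higher share near members than over all genes, in each direction, was seen in all 14 alternative settings for homo and for het pre-B cells. The homo counts were 68 higher and 69 lower without WT replicate 1, 66 and 69 without WT replicate 2 and 71 and 72 without WT replicate 3, and 114 and 116 without the shallow homo replicate 3. The het counts were 23 higher and 25 lower without WT replicate 1, 21 and 26 without WT replicate 2, 22 and 26 without WT replicate 3 and 23 and 27 without het replicate 1.

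**Figure D4:**
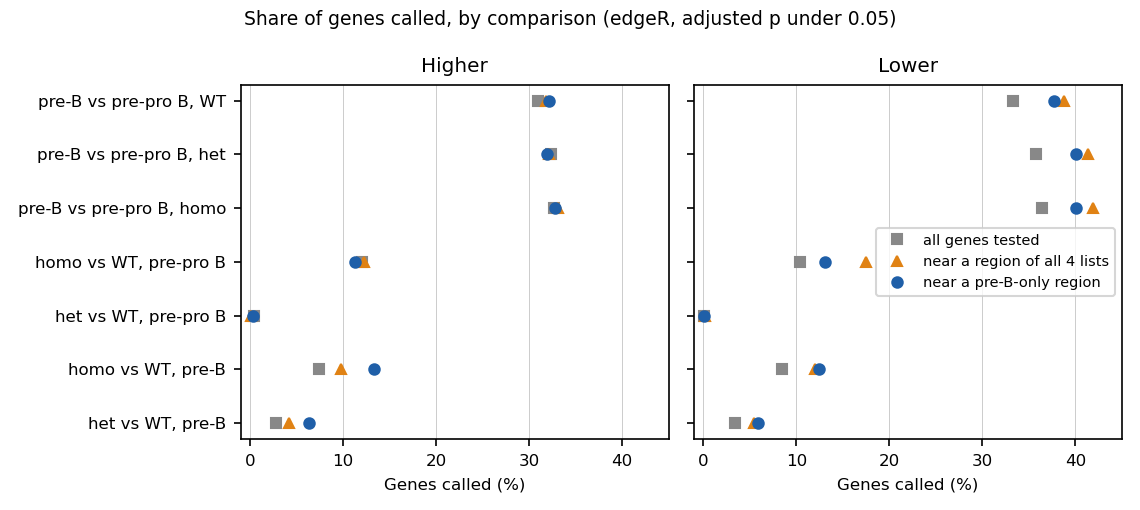
Share of tested genes called higher (left) or lower (right) by edgeR's quasi-likelihood test at an adjusted p under 0.05 (x axis, percent) in 7 comparisons (y axis). Circles are genes near a member, triangles genes near a region of all 4 Ikaros lists, squares all genes tested. In homo against WT pre-B cells the circles stand at 13.3% and 12.4% and the squares at 7.42% and 8.45%, and in the WT stage comparison the circles stand at 32.1% and 37.7% and the squares at 31% and 33.3%.

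6 of the 21 B lineage genes near members differed between homo and WT pre-B cells: Cd22, Socs2, Foxo1 and Cdk6 were higher and Fcer2a and Vav1 lower. Of the 118 tested B lineage genes with no member nearby 16 were higher and 22 lower. Cd22 had 259, 254 and 263 CPM in WT, 393, 424 and 374 CPM in het libraries and 460, 414 and 483 CPM in homo pre-B libraries. Het and homo overlapped, and both lay above WT. The log2 difference to WT was 0.81 ± 0.11 for homo (edgeR adjusted p = 0.000667) and 0.61 ± 0.11 for het (edgeR adjusted p = 0.00751). In pre-pro B cells Cd22 was at 64.1, 58.5 and 58.2 CPM in homo against 38.9, 33.8 and 42.7 in WT, which missed the threshold (log2 0.64 ± 0.26, edgeR adjusted p = 0.124). The stage effect on Cd22 in homo minus that in WT was 0.16 ± 0.26 (edgeR adjusted p = 0.749). At its promoter the Ikaros fold was 21.8 in WT and 18.7 in homo.

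Socs2 had 2 members in its body, with folds of 12.5 and 15.2 and of 8.60 and 7.59 in WT and homo. Its RNA in pre-B cells was 28.0, 27.0 and 40.4 CPM in WT and 52.9, 75.5 and 92.6 CPM in homo, without overlap (log2 1.19 ± 0.24, edgeR adjusted p = 0.00713). Fcer2a fell from 24.9, 21.3 and 16.6 CPM in WT pre-B libraries to 9.51, 9.62 and 4.65 CPM in het ones and to 0.476, 0.154 and 0 CPM in homo ones, with a log2 difference of -6.14 ± 0.52 for homo (edgeR adjusted p = 5.32e-05) and -1.43 ± 0.30 for het (edgeR adjusted p = 0.0181). Its member lay 5.03 kb downstream of the gene, with folds of 4.65 and 5.17.

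The other calls were small and less stable. Foxo1 was at 469, 471 and 445 CPM in WT and 620, 578 and 713 CPM in homo pre-B cells (log2 0.46 ± 0.12, edgeR adjusted p = 0.0284). Without WT replicate 1, 2 or 3 its adjusted p was 0.103, 0.107 and 0.122, and without homo replicate 1 it was 0.0621. Cdk6, the kinase that pairs with D-type cyclins, was at 262, 256 and 303 CPM in WT and 333, 403 and 458 CPM in homo (log2 0.54 ± 0.14, edgeR adjusted p = 0.0239), and lost the call without WT replicate 1 or 2 or homo replicate 2 (0.106, 0.115 and 0.0592). Vav1 was at 252, 238 and 231 CPM in WT and 177, 187 and 147 in homo (log2 -0.49 ± 0.12, edgeR adjusted p = 0.0215), with adjusted p of 0.0934, 0.0728 and 0.0594 when each WT library in turn was left out and 0.0547 when homo replicate 1 was. With the inferred sex of the mouse as a term all 3 missed the threshold, at adjusted p of 0.127 (Foxo1), 0.0781 (Cdk6) and 0.109 (Vav1).

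Pax5, Ebf1 and Tcf3 were not called between genotypes. Pax5 was at 208, 213 and 201 CPM in WT, 180, 189 and 179 in het libraries and 180, 174 and 179 in homo pre-B cells (homo log2 -0.22 ± 0.09, edgeR adjusted p = 0.123). Its het and homo libraries all lay below the WT ones, a difference that missed the threshold. Ebf1 was at 627, 643 and 629 CPM in WT and 700, 668 and 1320 CPM in homo (log2 0.50 ± 0.25, edgeR adjusted p = 0.225), and the value of 1320 CPM came from the shallow library, where Ebf1 had 2196 counts against 3592 to 4684 in the other 8. Tcf3 had a log2 difference of -0.19 ± 0.11 (edgeR adjusted p = 0.294).

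Most of the largest genotype differences near members were at genes outside the B lineage lists. Among genes with a mean of at least 5 CPM in a group and no overlap between homo and WT, the 5 lower genes with the largest change were Shank2, Fmn2, Fcer2a, Galnt10 and Adam19, each of which fell in het cells too. Adam19, a membrane metalloprotease, had a member 1.94 kb inside the gene with folds of 6.46 and 8.11. Its RNA was 538, 559 and 546 CPM in WT, 220.7, 158.1 and 217.3 in het libraries, and the homo pre-B libraries had 42.6, 42.6 and 22.8 (homo log2 -3.86 ± 0.22, edgeR adjusted p = 8.50e-06; het -1.47 ± 0.20, adjusted p = 0.00215). Galnt10, which starts mucin-type glycosylation, went from 93.3, 97.1 and 87.2 CPM in WT to 11.7, 7.40 and 17.0 in het libraries and 2.06, 3.55 and 0.601 in homo (homo log2 -5.20 ± 0.36, edgeR adjusted p = 2.27e-05). Its 2 members had WT folds of 4.40 and 4.02 and homo folds of 4.13 and 5.47. In neither gene did any 2 genotypes overlap.

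Fmn2 went from 106, 116 and 112 CPM in WT to 15.9, 11.8 and 12.1 in het libraries and 0.951, 1.70 and 0.601 in homo pre-B cells (homo log2 -6.47 ± 0.25, edgeR adjusted p = 1.63e-06; het -3.07 ± 0.18, adjusted p = 5.98e-05). The homo libraries were at about the level of WT pre-pro B cells. The Ikaros fold of its member was 6.99 in WT and 9.58 in homo. Shank2 had 19.5, 18.4 and 16.8 CPM in WT pre-B cells, 0.312, 0 and 0.290 in het libraries and no count in homo, at least 88.2-fold lower. Its member had folds of 4.52 and 4.70.

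By the same rule the 5 higher genes with the largest change were Hspa1a, Ak8, Gsg1l, Hspa1b and Nrg2. Ak8, an adenylate kinase, was at 0.320, 0.537 and 0.806 CPM in WT, 9.82, 9.87 and 8.71 in het libraries and 20.4, 9.26 and 8.41 in homo pre-B cells (homo log2 4.54 ± 0.47, edgeR adjusted p = 0.000169; het 4.03 ± 0.48, adjusted p = 0.00120). Het and homo overlapped, and both lay above WT. Gsg1l, an AMPA receptor accessory protein, was at 0.639, 0.896 and 0.322 CPM in WT, 3.12, 1.73 and 4.07 in het libraries and 12.8, 15.1 and 10.8 in homo (homo log2 4.39 ± 0.38, edgeR adjusted p = 6.15e-05), with no overlap between genotypes. Nrg2, a ligand of ErbB receptors, was at 0.16, 0.716 and 0.483 CPM in WT and 5.23, 7.87 and 2.40 in homo (log2 3.63 ± 0.60, edgeR adjusted p = 0.00264), and het was not called (0.71 ± 0.82, adjusted p = 0.668). Ak8 and Nrg2 had been high in WT pre-pro B cells, at 43.8 to 53.1 and 30.5 to 42.1 CPM, and Gsg1l had not, at 0 to 0.333 CPM.

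Hspa1a and Hspa1b, near-identical genes for the inducible heat shock protein 70, shared 2 members between them with WT folds of 20.5 and 7.17 and a homo fold of 18.8 from 1 homo region that overlapped both. Hspa1b was at 1.76, 1.61 and 2.26 CPM in WT, 6.39, 6.91 and 11.5 in het libraries and 16.2, 18.7 and 61.3 in homo pre-B cells (log2 3.94 ± 0.58, edgeR adjusted p = 0.00129). In pre-pro B cells 1 homo library, replicate 3, had 64.3 CPM of Hspa1b where the other 8 libraries had 0.564 to 2.82. Hspa1a had 2 counts in WT and 60 in homo pre-B libraries, a ratio of 37.3 (95% counting interval 9.88 to 315). How reads were split between the copies is unknown here, so the values of either gene alone are uncertain.

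**Figure D5:**
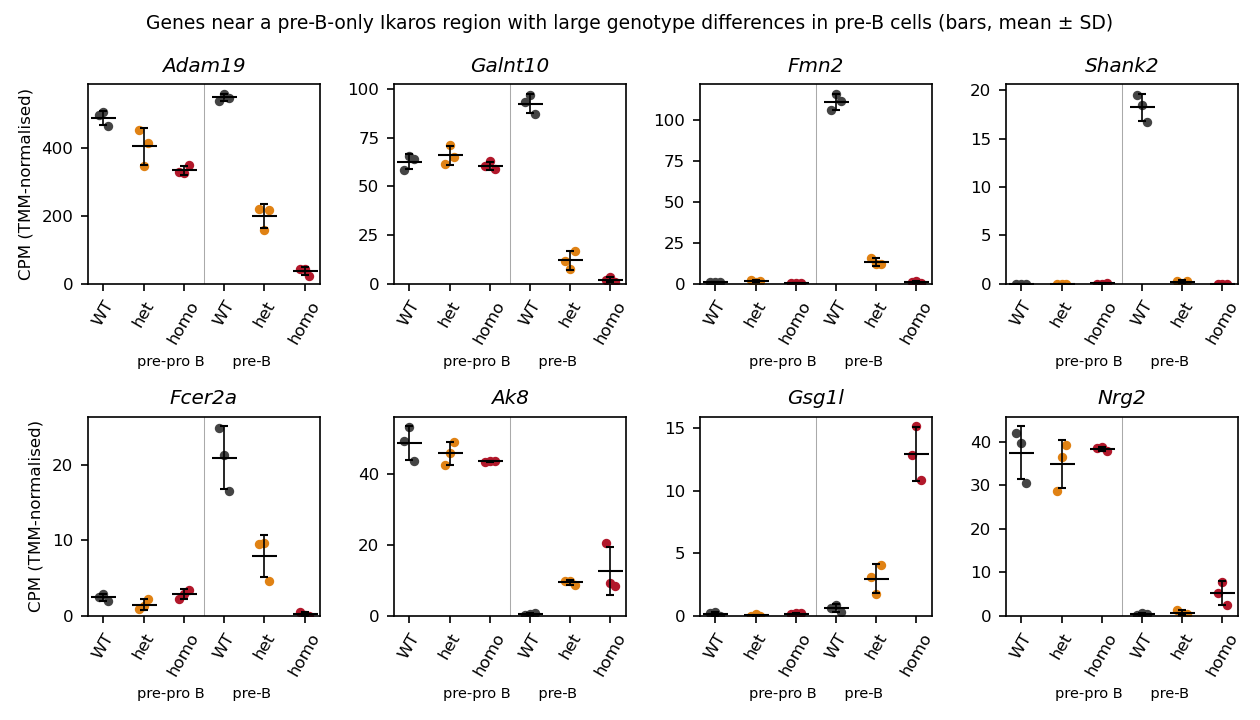
RNA levels (y axis, TMM-normalised CPM, each gene on its own axis from 0) of 8 genes near a member with large genotype differences in pre-B cells, in the 6 groups of stage and genotype (x axis). Points are libraries, bars the mean ± SD of 3. Adam19, Galnt10 and Fmn2 step down from WT through het to homo in pre-B cells, and Galnt10 is at 58.2 to 71.1 CPM in all 9 pre-pro B libraries.

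Of the 14 genes with a member on a promoter window that could be tested in pre-B cells, 3 were higher and 1 lower in homo, against 7.42% and 8.45% of all genes. Ctnnd1, which encodes the cadherin-binding p120 catenin, was at 10.9, 10.4 and 11.9 CPM in WT, 26.8, 22.0 and 24.5 in het libraries and 50.7, 55.1 and 35.5 in homo pre-B cells, with no overlap between genotypes (homo log2 2.12 ± 0.18, edgeR adjusted p = 6.15e-05; het 1.14 ± 0.18, adjusted p = 0.00573). Its promoter member was centred 8.34 kb inside the gene from its 5′ end, at an internal RefSeq start. The fold of this member was 8.04 in WT and 15.6 in homo. Cd44, the hyaluronan receptor, was at 206, 219 and 230 CPM in WT and 299, 267 and 345 in homo (log2 0.47 ± 0.12, edgeR adjusted p = 0.0281), a call that did not hold when any WT library or homo replicate 1 was left out, with adjusted p up to 0.145 over its alternatives. Ifit2, an interferon-induced gene, was at 28.8, 30.5 and 29.2 CPM in WT, 9.51, 9.62 and 12.3 in het libraries and 9.19, 12.3 and 10.8 in homo (homo log2 -1.45 ± 0.18, edgeR adjusted p = 0.000424). Of the 6 Hox genes near members that could be tested, Hoxa5 was higher in homo pre-B cells, at 4.28, 6.64 and 4.81 CPM against 1.60, 1.43 and 1.93 in WT (log2 1.67 ± 0.32, edgeR adjusted p = 0.00612).

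Between genotypes in pre-pro B cells, nearby genes were called lower in a larger share than genes at large, and higher in a slightly smaller one. Of 867 tested, 98 (11.3%) were higher and 114 (13.1%) lower in homo than in WT, against 12% and 10.4% of all 12188 genes. Genes near regions in all 4 Ikaros lists were called higher in 12.3% and lower in 17.5%, so the larger lower share was not particular to members. The share near members was above that of all genes in 14 of 14 alternative settings for lower calls and in 4 of 14 for higher calls. The homo pre-pro B libraries held 8592557 to 9048055 counts and the WT ones 5443344 to 6492192, so depth and genotype cannot be told apart in this comparison, and with library size as a term 6 genes were higher and 12 lower. With a sex term 22 were higher and 24 lower. Counts also fell without single libraries: 50 higher and 38 lower without WT replicate 1, 58 and 44 without WT replicate 2, 58 and 46 without homo replicate 2 and 52 and 55 without homo replicate 3. Of the 22 named genes called here none was called with library size as a term and 4 were with a sex term. Of the 21 B lineage genes near members 2 were higher in homo (Cdk6, Cd93) and 4 lower (Blnk, Lyn, Vav1, Zeb2). Of the 114 tested with no member nearby 17 were higher and 26 lower. None of the calls near members held with library size or with a sex term. In het pre-pro B cells 3 nearby genes were higher and 1 lower (against 0.435% and 0.123% of all genes, 0.558% in either direction), with 195 at an unadjusted p under 0.05. Without het replicate 1 these counts were 54 and 92, and without WT replicate 3 they were 19 and 5.

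The 5 higher genes with the largest change in homo pre-pro B cells, by the rule used in pre-B cells, included genes known from NK and myeloid cells. Il2rb, the IL-2 and IL-15 receptor β chain, was at 8.82, 5.83 and 9.65 CPM in WT and 34.5, 63.6 and 78.1 CPM in homo, without overlap (homo log2 2.84 ± 0.47, edgeR adjusted p = 0.00797). Klrb1c, the NK1.1 antigen, had log2 2.41 ± 0.48 (edgeR adjusted p = 0.0115) and Itgam, the integrin CD11b, 1.78 ± 0.32 (edgeR adjusted p = 0.00805), with Skap1 and Rnf150 as the others. With a sex term the adjusted p was 0.0541 for Il2rb, 0.0697 for Klrb1c and 0.0578 for Itgam. All 3 NK list genes near a member (Klrb1c, Il2rb, Zbtb16) were higher, as were 11 of the 12 with no member nearby. Sums of 6 NK markers were 20.2 to 27.9 CPM in WT and 147 to 249 CPM in homo pre-pro B libraries, and those of 6 myeloid markers 23.7 to 38.4 and 132 to 204 CPM, with no marker of either list at 0 in any of these groups. Their part in the calls was not tested. In pre-B cells, where 5 of the 6 NK markers were at 0 in WT, Klrb1c (1.28, 2.15 and 1.93 CPM in WT, 10.3, 8.64 and 11.4 in homo; log2 2.46 ± 0.26, edgeR adjusted p = 0.000163) and Itgam (50.5, 54.6 and 52.4 against 147, 110 and 110 CPM; 1.23 ± 0.13, adjusted p = 0.000227) were higher too. The NK marker sum in pre-B cells was 0 to 0.323 CPM in WT and 1.77 to 4.76 CPM in homo, where no NK marker was at 0. The myeloid marker sum in pre-B cells was 55.9 to 57.8 CPM in WT and 103 to 153 CPM in homo. The myeloid markers include Itgam itself, which made up most of the pre-B sum, so the sum is no separate measure for it. Of the myeloid list genes with no member nearby, 4 were tested in pre-B cells, with 0 higher and 2 lower in homo. The part of these cell types in the pre-B calls was not tested. The lower genes with the largest change in pre-pro B cells were Tgfa, St8sia6, Abca17, Ube2l6 and Nrxn2, with log2 differences from -1.38 to -0.94.

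The difference between genotypes depended on stage more often near members than over all genes tested. The test of the interaction, the stage effect in homo minus that in WT, called 93 of 900 nearby genes higher (10.3%) and 113 lower (12.6%), against 5.17% and 9.37% of all 12440 genes. Genes near regions in all 4 Ikaros lists were called higher in 7.51% and lower in 11.8%, also above all genes. The difference between the 2 sets of genes was not tested. The share near members was above that of all genes in both directions in all 19 alternative settings run. The B lineage genes with such a difference were Fcer2a (-6.41), Blnk (0.85) and Tcf4 (0.74), on the log2 scale. Blnk was also called lower in homo than in WT pre-pro B cells, a call lost with library size or a sex term. In homo pre-B cells Blnk was at 329, 311 and 605 CPM, the last in the shallow library, where it had 1007 counts against 1692 to 2135 in the other 8, and the part of that library was not tested.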

How the data were processed

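The 18 RNA libraries were deposited by the authors as raw read counts per gene symbol. The 8 region lists were deposited as broad peaks with a score, a fold over background (a ratio), a −log10 p and a −log10 q per region. Per the submitters' processing notes the tools were STAR 2.7.0, HISAT2 2.1.0 and MACS2 2.1.1 on mm10. Which aligner served which assay, the peak thresholds, the control used and the counting strand were not stated in the sources used here. Rows that name no gene were left out. Among them, reads on no feature made up 29.8% to 40.1% of each library and ambiguous reads 0.73% to 0.88%.

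Members were found by overlap of 1 bp or more (pandas 2.3.3, Python 3.11.15). Of the 24459 genes in the count table, 23390 matched the RefSeq GRCm38.p6 table by symbol and 949 by synonym, and 24312 positions were used. RNA was tested with edgeR 4.0.16 (R 4.3.3): TMM, its default filter on low counts, a robust quasi-likelihood fit and Benjamini-Hochberg adjustment over all genes tested, called at an adjusted p under 0.05. Stage and interaction tests used all 18 libraries and genotype tests the 9 of that stage. SE is the log2 difference over the root of F. The counting intervals are exact 95% binomial ones and, like the floor of 3 counts, cover counting error only. The test was checked on simulated data. Alternatives included DESeq2 1.42.0, other filters, windows and covariates, and leaving out each library.

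Genes named were the nearby B lineage list genes, the nearest genes of the 10 strongest members, the 5 with the largest stage change each way (mean of at least 10 CPM in a stage), the 5 with the largest genotype change each way (mean of at least 5 CPM, no overlap) and examples from other cell type lists. Ctnnd1, Cd44, Ifit2, Myo1e, Plaur and Hoxa5, and the regions with extreme fold ratios, were chosen after their values were seen. Members and gene lists were chosen with earlier results of these data known.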

Additional observations from a re-analysis of the deposited data

Results flagged for a closer look

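For 17 named genes near members the difference between homo and WT depended on stage by edgeR's quasi-likelihood test of the interaction (adjusted p under 0.05), given here as the stage effect in homo minus that in WT on the log2 scale. Negative values were found for Adam19 (-3.3, adjusted p = 4.55e-08), Galnt10 (-5.14, 1.87e-08), Fcer2a (-6.41, 2.67e-06), Fmn2 (-5.13, 3.78e-05) and Myo1e (-1.8, 0.0107). Shank2 had -11.4 (0.0248), a fitted value that rests on groups at 0 counts and is no bound. Positive values were found for Ak8 (4.73, 1.32e-06), Nrg2 (3.64, 0.000162), Gsg1l (4.3, 0.0334), Tgfa (2.81, 0.00513), Hoxa5 (1.48, 0.00248), Ctnnd1 (1.31, 0.00471) and Ube2l6 (1.07, 0.00521). The smaller ones were Blnk (0.853, 0.0378), Cd44 (0.779, 0.00776), Tcf4 (0.74, 0.0225) and Fbxo32 (0.582, 0.0365).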

How the results depend on the processing

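All values below are percentages of the nearby genes tested that were called higher and lower. Without a filter on low counts, more genes were tested: 21.1%, 20.5% and 21.7% rose with stage in WT, het and homo, and the shares were 7.16% and 7.46% in homo pre-pro B, 0.603% and 0.301% in het pre-pro B, 7.97% and 7.74% in homo pre-B, 4.1% and 3.87% in het pre-B and 5.69% and 8.19% for the interaction. With library size as a term they were 0.692% and 1.38% in homo pre-pro B, 0.115% and 0.231% in het pre-pro B, 21.1% and 19.8% in homo pre-B and 17.8% and 17.9% in het pre-B. With a sex term they were 2.54% and 2.77% in homo pre-pro B, and 0% were higher in het pre-pro B. The fit of all 18 libraries gave 3.56% lower in homo pre-pro B, 1.11% and 0% in het pre-pro B and 10.6% and 11.3% in het pre-B. In het pre-pro B, DESeq2 gave 1.7% and 1.33%, the stricter filter 0.136% higher, and the 2 kb window and the nearest gene 0% lower each. The 50 kb window gave 3.96% higher in het pre-B. The cause of these shifts was not tested beyond the number of genes tested.

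Leaving out 1 library at a time gave 5.68% to 9.78% higher and 4.31% to 8.98% lower in homo pre-pro B, 0% to 6.15% and 0% to 10.5% in het pre-pro B, 7.99% to 13.9% and 8.35% to 14.1% in homo pre-B, 2.54% to 6.54% and 3.03% to 6.05% in het pre-B, and 7.09% to 10.7% and 9.47% to 14.2% for the interaction. Same-numbered libraries of the 2 stages correlated at -0.0602 to 0.26, were each other's best match in 8 of 9 cases and had the same inferred sex in 9 of 9, a hint of pairing from the data that the labels do not give. Between genotypes correlations ran down to -0.614. In tests within 1 stage the replicate block was the replicate number across genotypes, so it did not model pairing of stages. With that block the shares were 0.692% higher in het pre-pro B, 3.71% and 3.09% in het pre-B and 8.9% and 8.65% in homo pre-B. It ended the pre-B homo calls of Foxo1, Vav1, Cd44 and Cdk6. In tests across stages the block was the replicate within its genotype. The shares were then 30.3% and 37.4% with stage in WT and 7.67% and 9.78% for the interaction.

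With a −log10 q of at least 10 in both pre-B lists 721 members were left, with median folds of 7.38 in WT and 9.68 in homo and 0% on Aiolos regions. With 50% reciprocal overlap there were 1942 members. Of the named genes, 45 of 45 stage calls, 0 of 22 homo pre-pro B calls and 18 of 25 homo pre-B calls held in all alternatives run, and none reversed. The 1 library per antibody and genotype limits every fold comparison.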

Other observations

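Members lay in 3 Hox clusters, whose genes set positional and progenitor identity. Of the 6 Hox genes near them that could be tested, Hoxa3 (-4.19), Hoxa5 (-4.13) and Hoxa6 (-4.50) fell on the log2 scale from WT pre-pro B to WT pre-B cells by edgeR's quasi-likelihood test, with adjusted p of 2.06e-07, 8.00e-12 and 1.50e-08. Hoxa4, Hoxb3 and Hoxb4 were not called (-0.72, -0.13 and -0.47).

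Myeloid list genes near members did not move one way with stage. Cebpb, a myeloid and inflammatory factor, fell by 4.99 on the log2 scale, whereas Itgam rose by 2.12. Kdr, the VEGF receptor of endothelial cells, fell by 7.29, from 151, 177 and 149 CPM in WT pre-pro B to 0.799, 1.43 and 0.806 CPM in WT pre-B libraries.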
